A study of Mus musculus with 6 samples.

Results

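Apelin and the capillary endothelium of the lung were followed in 10 genes, 5 of aerocytes (Apln, Car4, Ednrb, Tbx2 and Kdr) and 5 of general capillary cells (Aplnr, Gpihbp1, Kit, Plvap and Cd93). They were taken by symbol as genes known to mark these cells, out of the 56262 genes of the deposited count table, and all 10 had enough counts to be tested. Lungs of untreated mice at 8 weeks of age were compared, 3 from R/R mice and 3 from WT littermates. R/R mice carry the knock-in RBM47 K329R;K332R on both alleles, made by CRISPR/Cas on the C57BL/6 background, and WT mice carry neither substitution. Whole lung RNA was sequenced, so every level below is an average over all lung cells, and fewer cells of a type cannot be told apart from less RNA per cell. Between 16501092 and 18141067 read pairs were counted on genes per lung, the lowest count of any of the 10 genes in any lung was 1191, and the common coefficient of biological variation was 8.62%. RNA of the edited gene itself, Rbm47, averaged 33.4 ± 0.709 CPM over the R/R lungs against 31.2 ± 2.89 CPM over the WT lungs (SD, n = 3 each; log2 difference 0.10, adjusted p = 0.660, edgeR), and such counts do not read the substitutions. Where a value is given for each lung below, the order is replicates 1, 2 and 3.

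The alveolar capillary net is built of a pair of endothelial cell types. Aerocytes are large, flat cells that line the thin side of the barrier where gas is exchanged, and they depend on VEGF made by the alveolar epithelium. General capillary cells regulate vessel tone and act as the stem cells of the net, dividing after injury and giving rise to both types. Apelin, a small secreted peptide encoded by Apln, is made by aerocytes, and its G protein-coupled receptor, encoded by Aplnr, is carried by the neighbouring general capillary cells, so the pair joins the cell types. In other vessels apelin is known as a product of sprouting tip cells and as a gene induced by low oxygen.

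Apln fell in R/R lungs, the call among the 10 genes that edgeR's quasi-likelihood test made; Cd93 and Tbx2 were called by other tools, as described below. Apln lay at 71.0, 75.3 and 70.0 CPM (the count scaled to the depth of its library with edgeR's TMM factors) across the R/R lungs against 106, 115 and 93.0 CPM across the WT lungs. Each R/R lung was below each WT lung, and the mean in R/R lungs was 68.9% of that in WT lungs. The R/R lungs also lay closer together, with an SD of 2.83 CPM around 72.1 CPM against 10.9 CPM around 105 CPM (n = 3 each). The log2 fold change was -0.54 (standard error 0.08, 95% confidence interval -0.71 to -0.37), and its adjusted p was 0.00893 (edgeR, quasi-likelihood test). By p, Apln ranked 31 among the 17120 genes tested. The call held under all 15 alternatives, with an adjusted p of at most 0.0405 when a lung was left out. Apln (ENSMUSG00000037010.7) spans bases 48025146 to 48034853 of chromosome X, minus strand (build GRCm38).

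The promoters of Apln and of Dll4, another tip cell gene, which was called in the opposite direction (described further on), are shown here as RefSeq gives them for GRCm38.p6, 300 bases each around the start of the gene. They were searched on both strands for ACGTG and GCGTG, the core letters of the hypoxia response element, and capitals mark a match. Of 32851 promoters of the same length, 19.6% hold ACGTG and 32.4% hold GCGTG. Apln has 0 matches and Dll4 has 1 match to GCGTG, read on the other strand. Of the other capillary genes with a promoter in the table, Kdr has 2, Ednrb has 2 and Kit has 1 match to GCGTG, and Car4 has 1 match to ACGTG. Such a match is only a run of letters and not a measured site, and 0 matches in these 300 bases say nothing about sequence outside them.
Apln, chrX:48034804-48035103, minus strand: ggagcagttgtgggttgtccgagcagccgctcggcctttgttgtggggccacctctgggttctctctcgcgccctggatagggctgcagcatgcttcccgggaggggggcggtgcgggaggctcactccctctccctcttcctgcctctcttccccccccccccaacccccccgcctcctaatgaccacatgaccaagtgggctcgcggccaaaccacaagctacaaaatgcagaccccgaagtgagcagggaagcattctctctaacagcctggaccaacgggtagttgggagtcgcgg
Dll4, chr2:119325534-119325833, plus strand: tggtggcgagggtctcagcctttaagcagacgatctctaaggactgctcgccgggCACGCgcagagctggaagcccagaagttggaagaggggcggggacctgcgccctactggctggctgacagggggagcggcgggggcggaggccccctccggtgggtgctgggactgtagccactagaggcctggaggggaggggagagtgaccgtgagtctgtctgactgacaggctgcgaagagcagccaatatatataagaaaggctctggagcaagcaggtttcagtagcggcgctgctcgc

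A gene was called at an adjusted p of 0.05, which 1.75% of all tested genes reached, 1.10% lower and 0.648% higher in R/R lungs. Of the 10 capillary genes 1 was called by the quasi-likelihood test, and 4 (Apln, Tbx2, Cd93 and Plvap) had an unadjusted p under 0.05, as did 14.2% of all tested genes. In 5 of the 10 (Apln, Tbx2, Kdr, Cd93 and Plvap) the R/R and WT lungs did not overlap, as in 18.7% of all tested genes. The 5 aerocyte genes were all lower in R/R lungs (median log2 fold change -0.11). Of the 5 general capillary genes 3 were higher and 2 lower, with a median of 0.07. The median over all tested genes was 0.0045. Apln was part of the results known when these genes were chosen.

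**Figure D1:**
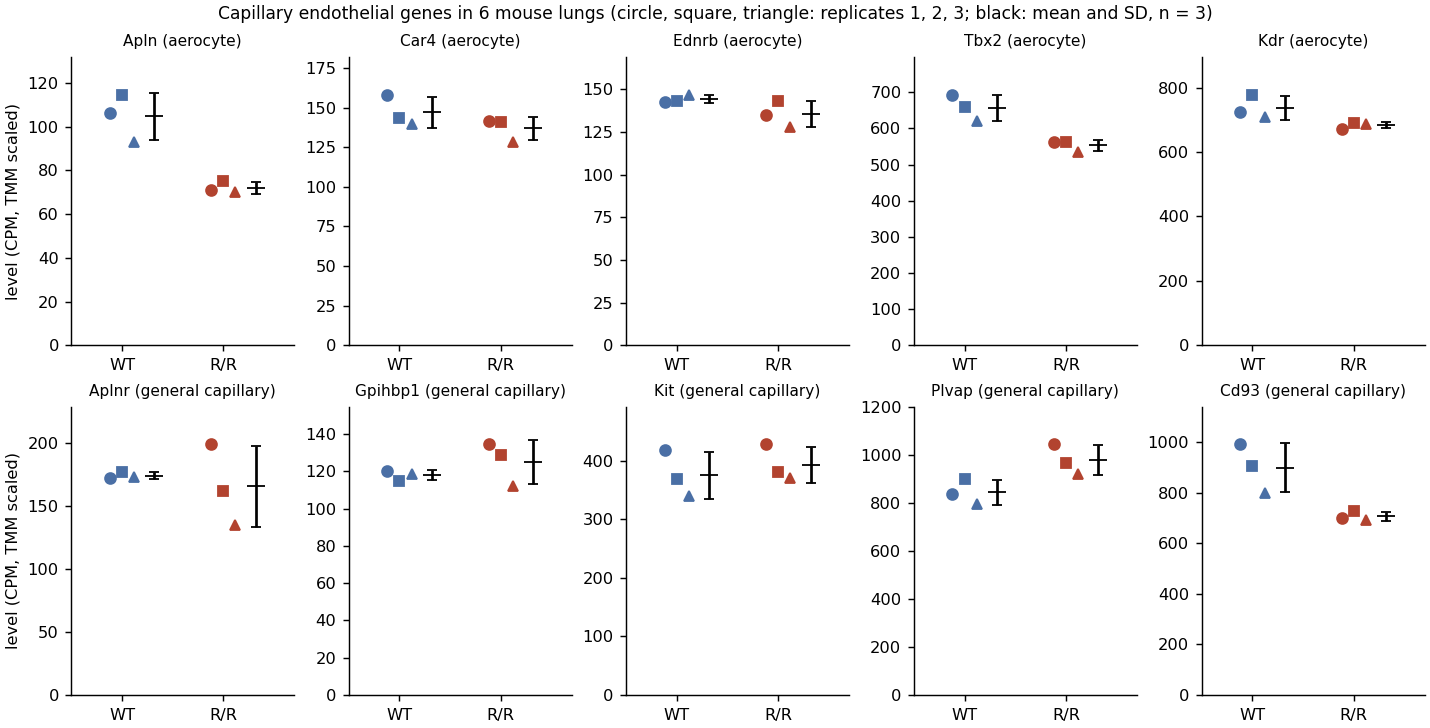
Level of each of the 10 capillary genes in each lung, in CPM from 0 (vertical axis), for WT lungs (blue) and R/R lungs (red); circles, squares and triangles are replicates 1, 2 and 3, and black bars give the mean and SD (n = 3). Apln sits at 70.0 to 75.3 CPM across the R/R lungs against 93.0 to 115 CPM across the WT lungs, while the Aplnr values of the WT lungs lie inside the spread of the R/R lungs.

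The other aerocyte genes were less far from WT. Tbx2, a T-box transcription factor that is also expressed in lung mesenchyme, was at 562, 564 and 536 CPM across the R/R lungs against 693, 658 and 620 CPM across the WT lungs. The groups did not overlap, with a log2 fold change of -0.25 (95% confidence interval -0.39 to -0.11), but the adjusted p was 0.0840 with edgeR's quasi-likelihood test. DESeq2 and edgeR's exact test called Tbx2 (adjusted p of 0.00725 and 0.0210), as did the quasi-likelihood test without WT replicate 3 (adjusted p = 0.0319, edgeR). Tbx2 (ENSMUSG00000000093.6) spans bases 85832551 to 85841948 of chromosome 11, plus strand.

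Kdr encodes VEGF receptor 2, which endothelial cells need to survive and to form aerocytes. It was at 672, 690 and 687 CPM across the R/R lungs against 723, 778 and 707 CPM across the WT lungs, without overlap but with a log2 fold change of only -0.11 (95% confidence interval -0.24 to 0.03, adjusted p = 0.483, edgeR). Car4 encodes carbonic anhydrase 4, an enzyme on the cell surface that speeds the exchange of carbon dioxide and bicarbonate and the usual marker of aerocytes. It was at 141, 141 and 128 CPM across the R/R lungs against 158, 144 and 139 CPM across the WT lungs, where the ranges overlapped (log2 fold change -0.10, 95% confidence interval -0.25 to 0.04, adjusted p = 0.533, edgeR). Ednrb, the endothelin receptor type B, which clears endothelin and relaxes vessels, was at 135, 143 and 128 CPM across the R/R lungs against 142, 143 and 147 CPM across the WT lungs. The log2 fold change was -0.09 (95% confidence interval -0.22 to 0.04, adjusted p = 0.544, edgeR), and the ranges overlapped through R/R replicate 2. A fall in Car4, Ednrb or Kdr as large as that of Apln lies outside each of these intervals.

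The receptor of apelin did not pass the test. Aplnr was at 199, 162 and 135 CPM across the R/R lungs against 172, 177 and 173 CPM across the WT lungs. R/R replicate 1 was the highest of all lungs and R/R replicate 3 the lowest, so the spread was wider in R/R lungs (SD 32.02 CPM, n = 3) than in WT lungs (SD 2.61 CPM, n = 3). The log2 fold change was -0.07 (95% confidence interval -0.31 to 0.16, adjusted p = 0.830, edgeR), and without R/R replicate 3 it was 0.05. Aplnr (ENSMUSG00000044338.9) spans bases 85136225 to 85139923 of chromosome 2, plus strand. Per kilobase of transcript, Apln stood at 0.419, 0.545 and 0.608 of the level of Aplnr in R/R lungs and at 0.725, 0.761 and 0.633 of it in WT lungs. The ratio was thus lower in each R/R lung than in each WT lung, with R/R replicate 3 close to WT replicate 3.

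The general capillary genes went different ways. Cd93, a C-type lectin-like protein of the endothelial surface that takes part in angiogenesis, was at 701, 727 and 694 CPM across the R/R lungs against 992, 907 and 800 CPM across the WT lungs. No R/R lung reached any WT lung, and the log2 fold change was -0.35 (95% confidence interval -0.52 to -0.17), with an adjusted p of 0.0529 (edgeR's quasi-likelihood test). Cd93 was called by DESeq2 (adjusted p = 0.000695), edgeR's exact test (0.00319) and limma-voom (0.0466), and without WT replicate 3 by the quasi-likelihood test (0.00652). Cd93 (ENSMUSG00000027435.8) spans bases 148436640 to 148443563 of chromosome 2, minus strand.

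Plvap, which forms the diaphragms of endothelial fenestrae and caveolae, stood in the opposite direction. It was at 1045, 968 and 921 CPM across the R/R lungs against 836, 900 and 797 CPM across the WT lungs, again without overlap, although R/R replicate 3 and WT replicate 2 were close. The log2 fold change was 0.21 (95% confidence interval 0.05 to 0.37, adjusted p = 0.199, edgeR). Gpihbp1, which carries lipoprotein lipase to the capillary lumen, was at 134, 129 and 112 CPM across the R/R lungs against 120, 115 and 119 CPM across the WT lungs. Its ranges overlapped because R/R replicate 3 was the lowest lung (log2 fold change 0.08, 95% confidence interval -0.07 to 0.24, adjusted p = 0.663, edgeR).

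Kit, the receptor of stem cell factor, marks general capillary cells and also mast cells. It was at 428, 380 and 370 CPM across the R/R lungs against 418, 368 and 339 CPM across the WT lungs, and the groups overlapped (log2 fold change 0.07, 95% confidence interval -0.12 to 0.25, adjusted p = 0.788, edgeR). Without R/R replicate 1 or WT replicate 3 its log2 fold change was close to 0, at -0.0011 and -0.0030. Mast cell genes were low beside it: the 7 genes of that list summed to between 58.7 and 75.8 CPM in R/R lungs and between 49.2 and 78.0 CPM in WT lungs. Most of that sum was Hdc, at 51.8, 55.3 and 68.7 CPM across the R/R lungs against 40.3, 48.5 and 68.1 CPM across the WT lungs. Cpa3 was at 5.26, 5.97 and 4.998 CPM against 7.76, 8.21 and 7.19 CPM, without overlap (log2 fold change -0.51, adjusted p = 0.129, edgeR). Of the 3 tested genes 2 were lower and 1 higher in R/R lungs, and 0 were called by edgeR's quasi-likelihood test. The other 4 (Mcpt4, Tpsb2, Fcer1a and Ms4a2) had too few counts to be tested. Kit and Kdr lie on chromosome 5 with Rbm47, 9.40 and 9.76 Mb from it. None of the 10 genes shares exonic bases with another gene annotated in GENCODE M21, so counting without strand does not mix them with a neighbour of that release. Overlaps in GENCODE M25, on which the counts were made, were not checked.

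**Figure D2:**
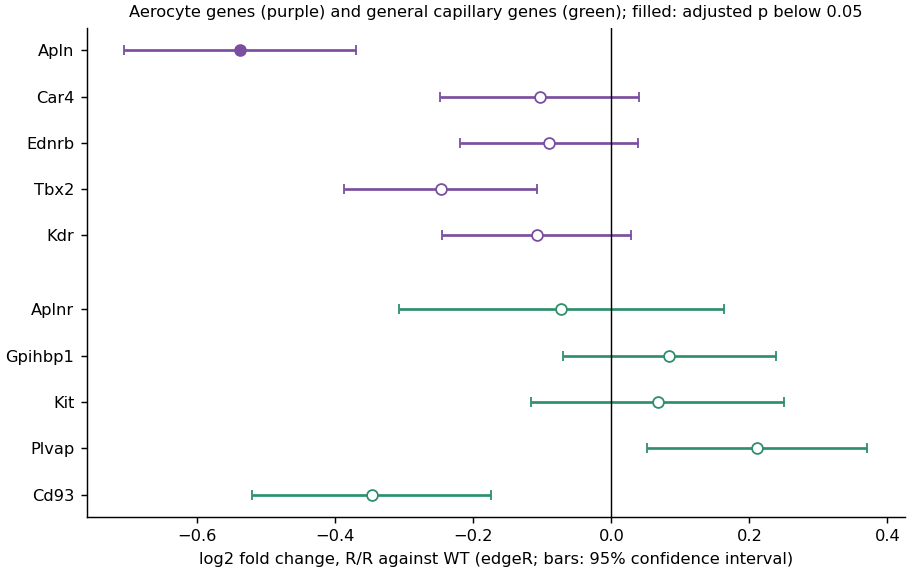
Log2 fold change of each gene in R/R against WT lungs (horizontal axis; points, with 95% confidence intervals from edgeR's quasi-likelihood test), for aerocyte genes (purple) and general capillary genes (green); a filled point marks an adjusted p below 0.05. Apln is the filled point at -0.54, the other aerocyte genes lie between -0.25 and -0.09, and the general capillary genes lie between -0.35 (Cd93) and 0.21 (Plvap).

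The fall of Apln was next set against the endothelium of the same lung. The 13 pan-endothelial genes, such as Pecam1 and Cdh5, which hold endothelial cells to each other, had a median log2 fold change of -0.04, with 6 higher and 7 lower in R/R lungs. No gene of this list was called by edgeR's quasi-likelihood test (0 of 13). An unadjusted p under 0.05 was reached by 3 of them, all lower in R/R lungs, the same direction as Apln. Sox17 and Cdh5 were among the 3 (log2 fold changes -0.33 and -0.16, adjusted p of 0.137 and 0.350, edgeR). DESeq2 called 1 gene (Sox17, lower), edgeR's exact test 0 and limma-voom 0. The summed level of the 13 genes was 6344 to 6702 CPM across the R/R lungs against 6281 to 7246 CPM across the WT lungs. On the log2 scale, Apln minus the mean of these genes was -2.49, -2.34 and -2.41 in the R/R lungs, and -2.003, -1.83 and -1.99 in the WT lungs. The group means were -2.41 ± 0.07 and -1.94 ± 0.10 (SD, n = 3 each). The groups did not overlap, and the difference between them was -0.47 (p = 0.1 by exact permutation, two-sided, which is the lowest value open to 3 lungs against 3). Apln was known to be lower when the genes were chosen, and this list differed little between the groups. The separation therefore largely restates the fall of Apln and is no further evidence for it.

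Against the mean of Car4, Ednrb, Tbx2 and Kdr, Apln was at -2.04, -1.98 and -1.99 on the log2 scale across the R/R lungs against -1.61, -1.48 and -1.73 across the WT lungs. Relative to the other aerocyte genes it was therefore lower in every R/R lung, by -0.40 on average between the groups (p = 0.1 by exact permutation, two-sided, again the lowest value open to this design). This value too largely restates the known fall of Apln.

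**Figure D3:**
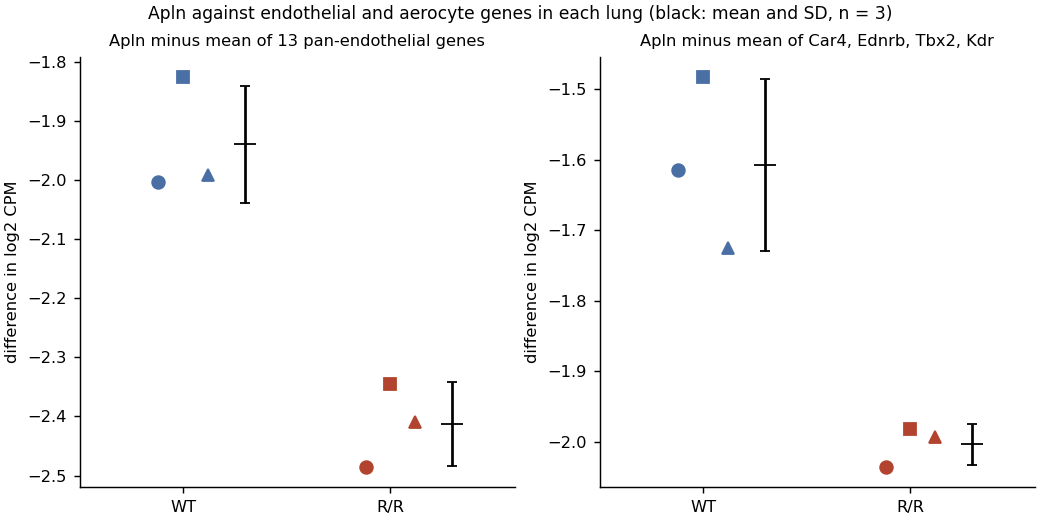
Log2 CPM of Apln minus the mean log2 CPM of 13 pan-endothelial genes (left) and of the other 4 aerocyte genes (right) in each lung (vertical axes, which do not start at 0); circles, squares and triangles are replicates 1, 2 and 3, and black bars give the mean and SD (n = 3). In both panels the 3 R/R lungs lie below the 3 WT lungs, by 0.47 (left, R/R minus WT -0.47) and by 0.40 (right, R/R minus WT -0.40) on average.

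Per kilobase of gene length (RPKM, which allows levels of different genes to be compared), Plvap was the most abundant of the 10, at 459 ± 45.1 RPKM over the 6 lungs (SD), followed by Tbx2 at 167 ± 17.1 and Cd93 at 120 ± 18.3. Each of these stood above the next gene in the order in 6 of 6 lungs, but the ranges of Tbx2 and Cd93 overlapped, as Tbx2 in R/R lungs was near Cd93 in WT lungs. Kdr (78.6 ± 4.19 RPKM) and Car4 (72.2 ± 4.85 RPKM) had overlapping ranges, with Kdr the higher in 5 of 6 lungs. Gpihbp1, Aplnr and Kit stood at 47.5 ± 3.34, 45.9 ± 5.64 and 43.0 ± 3.75 RPKM, and their ranges overlapped too. Ednrb was at 32.8 ± 1.65 RPKM. Apln was the lowest at 28.1 ± 6.10 RPKM, below Ednrb in the R/R lungs (22.2 to 23.9 RPKM) but above it in 2 of the 3 WT lungs (29.5 to 36.4 RPKM).

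Other genes of the same cell types were described from lists of known markers. Of 8 further aerocyte genes, 7 were lower and 1 (Fibin) was higher in R/R lungs (median log2 fold change -0.07). The quasi-likelihood test of edgeR called 0 of them, with 2 at an unadjusted p under 0.05, while DESeq2 and edgeR's exact test each called 1 (Prx) and limma-voom 0. Prx, which encodes the scaffold protein periaxin, was at 292, 298 and 275 CPM across the R/R lungs against 399, 350 and 326 CPM across the WT lungs (log2 fold change -0.31, adjusted p = 0.0669, edgeR). Kitl, the ligand of Kit, was at 307 to 318 CPM across the R/R lungs against 305 to 332 CPM across the WT lungs (adjusted p = 0.775, edgeR).

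Of 8 further general capillary genes, 5 were lower and 3 higher (median log2 fold change -0.10). Of these 0 were called by edgeR's quasi-likelihood test, 4 had an unadjusted p under 0.05, and DESeq2 called 1 (Tmem100), edgeR's exact test 2 (Sema3c and Tmem100) and limma-voom 0. Sema3c, a secreted semaphorin, had the lowest fold change, with 455, 593 and 465 CPM across the R/R lungs, 776, 768 and 542 CPM across the WT lungs and a log2 fold change of -0.46 (adjusted p = 0.125, edgeR). Its groups overlapped through R/R replicate 2 and WT replicate 3. Glp1r, the receptor of glucagon-like peptide 1, was at 313 to 365 CPM across the R/R lungs against 278 to 316 CPM across the WT lungs (log2 fold change 0.16, adjusted p = 0.365, edgeR).

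The genes that make, cut and read apelin were not called. Of 15 such genes 14 were tested, 7 higher and 7 lower in R/R lungs (median log2 fold change 0.0080). Here 0 were called by edgeR's quasi-likelihood test, DESeq2, edgeR's exact test or limma-voom, and 1 had an unadjusted p under 0.05. Apela, the other ligand of the receptor, had 0 counts in each R/R lung and 0, 1 and 2 counts in the WT lungs, below the 3 counts (0.182 CPM in the smallest library) taken as the limit of detection. Mme, the protease neprilysin, which inactivates apelin, was at 186 to 204 CPM across the R/R lungs against 161 to 190 CPM across the WT lungs. Furin, which releases apelin from its precursor, was at 197 to 199 CPM across the R/R lungs against 193 to 208 CPM across the WT lungs.

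The ligands of the other receptors were also measured. Vegfa, the growth factor that acts through Kdr and that alveolar type 1 cells supply, was at 1280, 1267 and 1327 CPM across the R/R lungs against 1349, 1353 and 1294 CPM across the WT lungs, with overlap (log2 fold change -0.05, adjusted p = 0.818, edgeR). Of the 10 genes of the VEGF pathway 5 were higher and 5 lower (median log2 fold change -0.02), and 0 were called by edgeR's quasi-likelihood test, DESeq2, edgeR's exact test or limma-voom (1 at an unadjusted p under 0.05). Edn1, which encodes endothelin 1, the ligand of Ednrb, was at 29.5, 33.4 and 24.99 CPM across the R/R lungs against 32.1, 43.6 and 32.7 CPM across the WT lungs (log2 fold change -0.31, adjusted p = 0.312, edgeR). Of the 4 tested genes of that pathway 0 were called by any of these 4 tools, with 2 at an unadjusted p under 0.05. Lpl, the lipase that Gpihbp1 binds, was at 223, 175 and 188 CPM across the R/R lungs against 158, 166 and 166 CPM across the WT lungs, without overlap (log2 fold change 0.26, adjusted p = 0.161, edgeR).

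Apln is also counted among tip cell genes. Dll4, the Notch ligand of tip cells and arteries, rose to 179, 150 and 175 CPM across the R/R lungs from 126, 136 and 124 CPM across the WT lungs, a log2 difference of 0.39 ± 0.07 (standard error; edgeR, adjusted p = 0.0297). Per lung, the level of Apln in CPM was 0.396, 0.502 and 0.400 of that of Dll4 across the R/R lungs against 0.846, 0.845 and 0.753 of it across the WT lungs. As Apln and Dll4 each separated the groups, in opposite directions, their ratio had to separate them as well. Without R/R replicate 1 or 3 or WT replicate 1 or 2, Dll4 was not called (adjusted p of 0.0801, 0.0869, 0.117 and 0.0512, edgeR). Esm1, the proteoglycan endocan, was at 66.9, 34.6 and 43.5 CPM across the R/R lungs against 20.9, 23.6 and 33.3 CPM across the WT lungs, where R/R replicate 2 and WT replicate 3 nearly met (log2 fold change 0.90, adjusted p = 0.0668, edgeR). Angpt2, the angiopoietin of sprouting vessels, was at 29.7 to 41.3 CPM across the R/R lungs against 28.6 to 32.3 CPM across the WT lungs, with overlap. Over the 7 tip cell genes other than Apln, 4 were higher and 3 lower (median log2 fold change 0.09), and 2 of the higher and all 3 of the lower had an unadjusted p under 0.05. Unc5b, a netrin receptor, was at 47.2, 46.9 and 51.3 CPM across the R/R lungs against 64.7, 63.9 and 52.5 CPM across the WT lungs, without overlap (log2 fold change -0.32, adjusted p = 0.0956, edgeR). Nid2, the basement membrane protein nidogen 2, had a log2 fold change of -0.37 without overlap (adjusted p = 0.119, edgeR), and Pdgfb, the growth factor that acts through Pdgfrb, one of -0.19 with overlap (adjusted p = 0.341, edgeR). The lower genes therefore lay on the same side as Apln. DESeq2 called 2 of the 7 (Dll4 and Unc5b), edgeR's exact test 3 (Dll4, Esm1 and Unc5b) and limma-voom 1 (Dll4).

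Because apelin is induced by low oxygen, 10 genes known for the same response were read as well. Of these 7 were higher and 3 lower in R/R lungs (median log2 fold change 0.14). None was called by edgeR's quasi-likelihood test (0 of 10, with 3 at an unadjusted p under 0.05, all higher), by DESeq2 (0) or by limma-voom (0), and edgeR's exact test called 1 (Slc2a1, the glucose transporter GLUT1). Slc2a1 was at 23.2, 24.5 and 24.4 CPM across the R/R lungs against 17.8, 18.6 and 20.2 CPM across the WT lungs (log2 fold change 0.35, adjusted p = 0.0673, edgeR).

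Genes of pericytes, the mural cells of the capillary wall, were lower beside these genes. All 6 pericyte genes were lower in R/R lungs, without overlap in any of them, and the median log2 fold change was -0.31. Their summed level was 705 to 750 CPM across the R/R lungs against 850 to 957 CPM across the WT lungs. One of them was called, Pdgfrb, the receptor that pericytes need to reach the endothelium, which fell to 301, 313 and 288 CPM across the R/R lungs from 414, 397 and 355 CPM across the WT lungs (log2 fold change -0.37, adjusted p = 0.0268, edgeR). Pdgfrb was called without WT replicate 3 (adjusted p = 0.00458) but not without any other lung (adjusted p of 0.0634 to 0.112, edgeR). DESeq2 and edgeR's exact test each called 4 of the 6 and limma-voom 1. The part of pericytes in the lower values of Tbx2 and Apln was not tested.

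Genes of dividing cells were lower as well. All 6 of that list were below WT, the median log2 fold change was -0.65, and their summed level was 37.5 to 47.5 CPM across the R/R lungs against 56.8 to 78.2 CPM across the WT lungs. Mki67 fell to 17.7, 22.1 and 18.05 CPM from 31.7, 33.9 and 24.1 CPM, and Top2a to 10.7, 14.7 and 13.7 CPM from 19.6, 23.5 and 18.4 CPM (log2 fold changes -0.64 and -0.66, adjusted p of 0.0366 and 0.0353, edgeR). DESeq2 and edgeR's exact test each called 3 of the 6 (Mki67, Top2a and Cenpf) and limma-voom 2 (Mki67 and Top2a). Of the 6 fits that left out a lung, the one without WT replicate 3 called Mki67 and Top2a (adjusted p of 0.00322 and 0.0146, edgeR) and the others called neither, with values up to 0.142 and 0.132. The part of dividing cells in the level of any capillary gene was not tested.

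**Figure D4:**
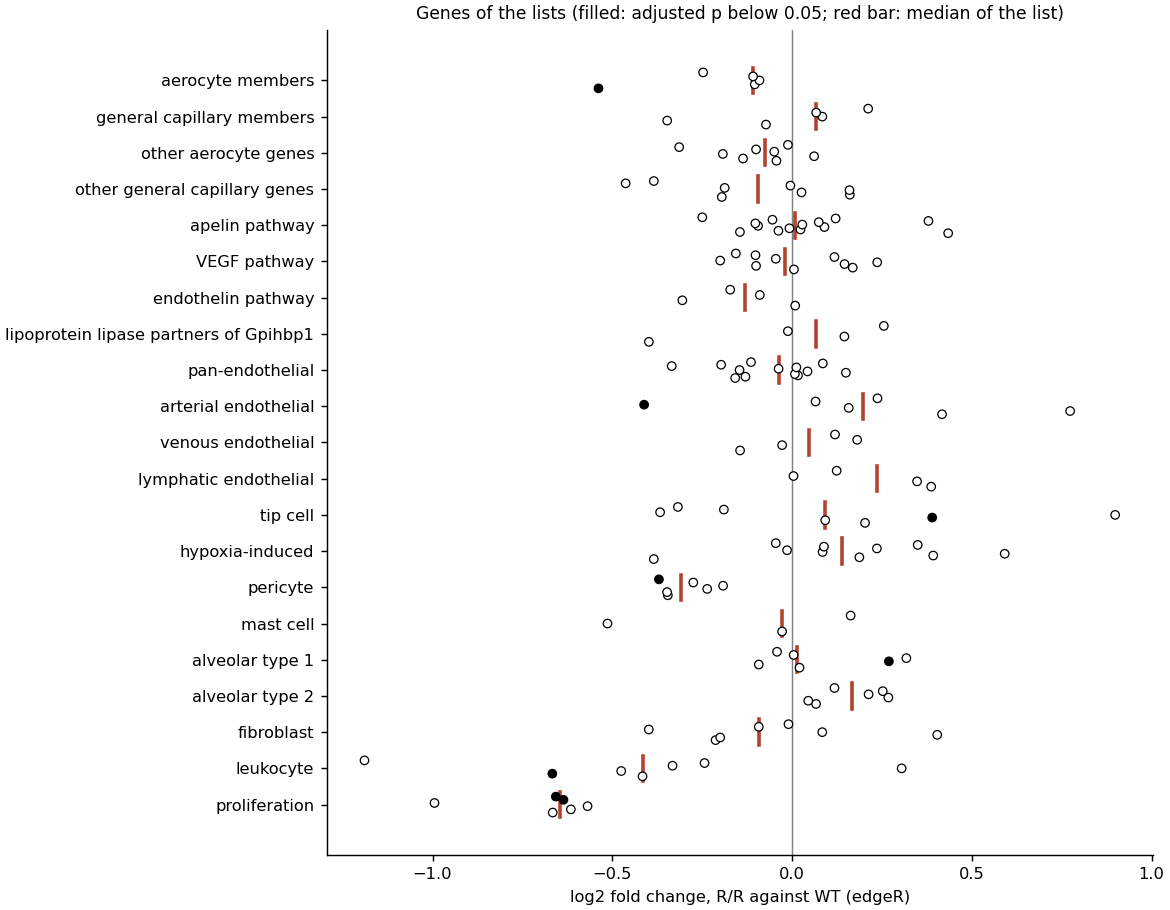
Log2 fold change in R/R against WT lungs (horizontal axis) of every tested gene of the lists of capillary, vascular and other lung cell genes and of the pathways named on the vertical axis; filled points have an adjusted p below 0.05 (edgeR) and red bars give the median of each list. Apln lies apart at -0.54 in the first row, the pan-endothelial genes are spread around 0, and the 6 pericyte genes and the 6 genes of dividing cells lie below 0.

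Outside the 10 genes, the tested genes whose log2 CPM followed Apln most closely over the 6 lungs, among those with a mean log2 CPM of 1 or more, were Oasl1, Nedd4, Zfp651, Aurka and Mfap4, with Pearson's r of 0.999, 0.996, 0.995, 0.995 and 0.994. The 6 lungs fall into a high and a low group by genotype, so these values describe a shared difference between genotypes and carry no test. Mfap4, an extracellular matrix protein of elastic fibres, was at 429, 494 and 485 CPM across the R/R lungs against 1274, 1620 and 913 CPM across the WT lungs (log2 fold change -1.44, adjusted p = 0.00193, edgeR). Zfp651 was also called (log2 fold change -0.36, adjusted p = 0.0378, edgeR), and Oasl1, Nedd4 and Aurka were not. Among the 10 genes, Tbx2 and Cd93 followed Apln most closely, with r of 0.95 and 0.94, and Plvap went against it, with r of -0.65.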

How the data were processed

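Lungs of 3 R/R and 3 WT mice were grouped by the sample labels. The authors aligned paired reads to GRCm38 (mm10) by HISAT2, version 2.1.0. They deposited a table of raw counts, 1 per gene and lung, that its header credits to featureCounts 2.0.1 run on GENCODE M25 without strand or multi-mapping pairs; it holds no normalization. Symbols came from GENCODE M21 of the same assembly, and 55141 of 56262 identifiers matched. In R 4.3.3 with edgeR 4.0.16, filterByExpr selected genes (at least 10 counts, 15 in total), which were scaled by TMM and compared by the quasi-likelihood test (glmQLFit, glmQLFTest), with Benjamini-Hochberg adjustment over all genes tested. Each standard error is the log2 fold change over the root of its F value, and RPKM used the deposited gene length. Single values per lung were compared by exact permutation of log2 CPM (prior count 0.5). As alternatives served edgeR's exact test, DESeq2 1.42.0, limma 3.58.1 (voom), other scalings and filters, the replicate number as a block and each lung left out. The genes and lists were chosen with earlier results of these data known. Named genes are the 10, every called gene of the lists, up to 4 per list in the order written, and the 5 most like Apln. Sox17, Tmem100, Npnt, Unc5b, Nid2, Hey1, Cenpf and Lyz2 were named after their calls were seen, and Hdc after its level was seen. 1 gene of the apelin pathway list is counted but not reported here. The fit was tested on simulated counts with 200 genes changed by a log2 of 1, larger than the change of any of the 10 genes. It recovered 82% of them with 16 false calls, and smaller changes were not simulated. P-values measure the spread between these lungs, and 3 counts cover counting error only.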

Additional observations from a re-analysis of the deposited data

How the results depend on the processing

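Apln kept its direction and its call in all 15 alternatives, with log2 fold changes of -0.62 to -0.47 when a lung was left out. Of the 10 capillary genes 1 was called, and 3 were with DESeq2, 3 with edgeR's exact test, 2 with limma-voom, 2 with library size without TMM and 4 with no filter beyond 1 count in total. Of the other genes of the lists 7 were called, and 19, 21 and 40 were with DESeq2, the exact test and no filter. With a lung left out these counts ranged from 1 to 3 and from 0 to 26, the highest without WT replicate 3, and those over all genes from 65 to 621 (300 with all lungs, 541 with DESeq2, 630 with the exact test and 1109 without the filter). The cause of these differences in the number of calls was not tested. With the replicate number as a block, 2 of the 10 genes (Apln and Cd93, adjusted p of 0.0024 and 0.036) and 17 other list genes were called by edgeR. Calls over all genes also rose with the block, to 446 from 300. Samples with the same number did not deviate together (r of -0.014, -0.0036 and -0.015). With 3 lungs per group this cannot exclude a shared litter or batch, and the labels give only the number. Directions reversed for Aplnr without R/R replicate 3 (range with a lung left out -0.229 to 0.0536) and for Kit without R/R replicate 1 (-0.0011) or WT replicate 3 (-0.0030; range -0.0030 to 0.150), none of these called. Apln relative to pan-endothelial genes and to the other aerocyte genes stayed lower in R/R lungs in all 9 alternatives each, from -0.51 to -0.42 and from -0.46 to -0.33 with a lung left out. The 9 include pairing by replicate number, which cannot change the difference itself. With that pairing the exact sign permutation gave p = 0.25, its smallest value. Whole-lung counts give no depth per cell type, which limits each of these comparisons.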

Other observations

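Other vessels and the alveolar epithelium gave these values in the same lungs. Of 6 arterial genes 5 were higher and 1 lower in R/R lungs, and the lower one, Gja4, the gap junction protein connexin 37, fell to 87.7, 76.5 and 79.5 CPM across the R/R lungs from 114, 114 and 96.4 CPM across the WT lungs (log2 fold change -0.41, adjusted p = 0.0302, edgeR). The 5 higher genes included 3 at an unadjusted p under 0.05, all without overlap. Hey1, a target of Notch signalling, had a log2 fold change of 0.24, Bmx, a tyrosine kinase, one of 0.42, and Efnb2, the arterial ligand ephrin B2, one of 0.16 (adjusted p of 0.0946, 0.133 and 0.265, edgeR). DESeq2 and limma-voom each called 1 arterial gene (Gja4) and the exact test 2 (Gja4, and Hey1 as higher). Gja4 was not called without R/R replicate 2 or 3 or WT replicate 1 or 2 (adjusted p of 0.126, 0.0887, 0.119 and 0.106). The 4 tested lymphatic genes were all higher (median log2 fold change 0.24) and the 4 tested venous genes were 2 higher and 2 lower (0.05). In these lists edgeR's quasi-likelihood test, DESeq2, the exact test and limma-voom called 0 genes, with 2 lymphatic genes and 1 venous gene at an unadjusted p under 0.05.

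Of 6 alveolar type 1 genes, the cells that lie against aerocytes, 4 were higher and 2 lower, and Aqp5, a water channel, rose to 317, 313 and 333 CPM across the R/R lungs from 253, 270 and 276 CPM across the WT lungs (log2 fold change 0.27, adjusted p = 0.0459, edgeR). Of the 6 fits that left out a lung, the one without WT replicate 3 called Aqp5 (adjusted p = 0.0298, edgeR) and the others did not, with values up to 0.198 without WT replicate 1. DESeq2 and the exact test each called 2 genes of this list (Hopx and Aqp5) and limma-voom 1 (Aqp5). Hopx, a homeodomain protein of these cells, had a log2 fold change of 0.32 (adjusted p = 0.0773, edgeR). All 6 alveolar type 2 genes were higher (median log2 fold change 0.17), with 0 called by edgeR's quasi-likelihood test, 3 at an unadjusted p under 0.05, 1 called by DESeq2 (Sftpc) and 0 by the exact test or limma-voom. Of 7 fibroblast genes 5 were lower (median log2 fold change -0.09), with 0 called by the quasi-likelihood test, 2 at an unadjusted p under 0.05 and 1 (Npnt) called by each of the other tools. Of 7 leukocyte genes 6 were lower (median log2 fold change -0.42), although their summed level was higher in R/R lungs (5225 to 5506 CPM) than in WT lungs (3808 to 5175 CPM) through the seventh, Lyz2, and Cd79a, a B cell receptor subunit, was called (log2 fold change -0.67, adjusted p = 0.0491, edgeR), but not without R/R replicate 2 or 3 or WT replicate 1 or 2 (adjusted p of 0.132, 0.0866, 0.198 and 0.0642). Cd79a was also not called by limma-voom (adjusted p = 0.0511) or with genes kept at 1 CPM in 3 libraries (adjusted p = 0.0535, edgeR). DESeq2 called 2 leukocyte genes (Cd79a, and Lyz2 as higher), the exact test 2 (Cd79a and Itgam, both lower) and limma-voom 0.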
